A study of Rattus norvegicus with 15 samples.

Results

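Pituitary adenylate cyclase-activating polypeptide (PACAP) and vasoactive intestinal peptide (VIP) are related neuropeptides, and this account covers the 5 rat genes that encode them and their receptors. They are Adcyap1 (PACAP), Vip (VIP), Adcyap1r1 (the PAC1 receptor), Vipr1 (the VPAC1 receptor) and Vipr2 (the VPAC2 receptor). The platform annotation pairs 10 of the table's 8799 probe sets with them, and gives 4736 different single symbols in all, control probe sets aside. Each probe set combines several short probes into 1 signal for a transcript. Adcyap1 and Adcyap1r1 each had 3 probe sets, Vipr1 had 2, and Vip and Vipr2 had 1 each. The genes were found by symbol, and the system was picked on the differences between the regions already seen for its Adcyap1 probe sets, so every comparison of its members between the regions is given as a description, with no test.

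The RNA came from rat neurons cut by laser capture from the substantia nigra pars compacta (SNc, 8 arrays, numbered 1 to 8) or the ventral tegmental area (VTA, 7 arrays, numbered 1 to 6 and 8). The labels name no treatment, genotype, strain, sex or age, no allele or agent, and not how many rats gave tissue or whether captures were pooled. Spread between arrays may therefore be partly technical, and p-values measure only that spread. Signals are linear intensities that had already been brought to 1 common level on every array.

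PACAP and VIP are cut from larger precursors and act on G protein-coupled receptors of class B, the secretin receptor family. PAC1 prefers PACAP, whereas VPAC1 and VPAC2 bind both peptides. All of these receptors act mainly through the stimulatory G protein, adenylyl cyclase, cAMP and protein kinase A, which phosphorylates the transcription factor CREB, and PAC1 can also engage phospholipase C. PACAP is made by some neurons of the ventral midbrain and is known for promoting the survival of dopamine neurons in culture, while VIP is made by a separate group of dopamine neurons in and near the dorsal raphe.

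The captures carried high signals for dopamine neuron genes in both regions. The mean signal of Th, which encodes tyrosine hydroxylase, was 6615 ± 527 over the SNc arrays and 7193 ± 770 over the VTA arrays (SD, n = 8 and 7), and that of Slc6a3, the dopamine transporter, 7245 ± 603 and 5782 ± 979. Genes used as markers of other cells also gave signal. The summed signal of 5 oligodendrocyte genes ran from 5269 to 9490 in SNc and from 7686 to 11315 in VTA, and that of 5 astrocyte genes from 3018 to 4497 and from 3415 to 4930. Most of the astrocyte sum came from Aldoc (means 2200 in SNc and 2054 in VTA) and S100b (1344 and 1499), with Slc1a3 at 400 and 395. Aqp4 had means of 31.8 and 63.5, and Slc1a2 of 46.5 and 61.5. The 4 GABA neuron genes summed to between 909 and 1848 in SNc and between 551 and 1022 in VTA. Gad1 (means 754 in SNc and 279 in VTA) and Pvalb (141 and 53.7) were called higher in SNc in the whole-table fit described below. Slc32a1 (403 and 374) and Gad2 (62.6 and 47.1) were not called. In that fit 0.993% of all genes tested were called higher in SNc. Of 5 microglia genes, 4 had a mean under the level at which probe sets were left out of that fit, and Slc17a7, the 1 glutamate neuron gene with a probe set, stayed between 1.59 and 7.35 on all arrays. No marker gene was at 0 on every array. The part of these other cells in the values below was not tested.

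Adcyap1 was the only gene of the 5 with probe sets bright enough for the whole-table fit, and all 3 of them gave a higher mean in VTA than in SNc. By probe set X80290cds_s_at the signal lay between 15.5 and 49.0 in SNc, with a median of 28.9, and between 42.9 and 128 in VTA, with a median of 92.4. The regions overlapped at 1 VTA array only: VTA 5, at 42.9, lay below SNc 1 at 49.0 and SNc 8 at 48.2. Means were 30.7 ± 13.0 (SNc) and 88.3 ± 30.8 (VTA; SD, n = 8 and 7), a difference of -1.15 (SE 0.21) between the means of log2(signal + 16), SNc minus VTA. In bulk captures such as these, fewer cells that make a transcript and less transcript per cell cannot be told apart.

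Probe set rc_AI228407_s_at gave a similar picture at signals near the low end of the array in SNc. Its signal ran from 4.21 to 50.1 in SNc, with a median of 17.8, and from 39.7 to 166 in VTA, with a median of 82.6. Only SNc 8, at 50.1, reached into the VTA range, where VTA 6 at 39.7 was lowest. The other 7 SNc arrays were all under 26.3, the level that the mean of a probe set's log2 values had to exceed to enter the whole-table fit, whereas all 7 VTA arrays were above it. Means were 21.4 ± 13.2 (SNc) and 89.2 ± 46.3 (VTA), with a log2 difference of -1.45 (SE 0.26).

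The brightest Adcyap1 probe set, M63006_at, showed a smaller difference and a wide overlap. Its signal ran from 101 to 311 in SNc, with a median of 182, and from 194 to 311 in VTA, with a median of 269. SNc 5, SNc 7 and SNc 8 lay inside the VTA range, at 220, 248 and 311, and all 7 VTA arrays lay at or under the SNc maximum. Means were 191 ± 67.6 (SNc) and 260 ± 46.1 (VTA), with a log2 difference of -0.46 (SE 0.19), close to the spread among arrays of 1 region (pooled SD 0.39 on the log2 scale). The ratio of M63006_at to X80290cds_s_at on the same array, a ratio of 2 probe sets and not of transcript amounts, ran from 3.51 to 12 in SNc and from 2.11 to 4.70 in VTA, so the probe sets of Adcyap1 did not change by equal amounts.

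**Figure D1:**
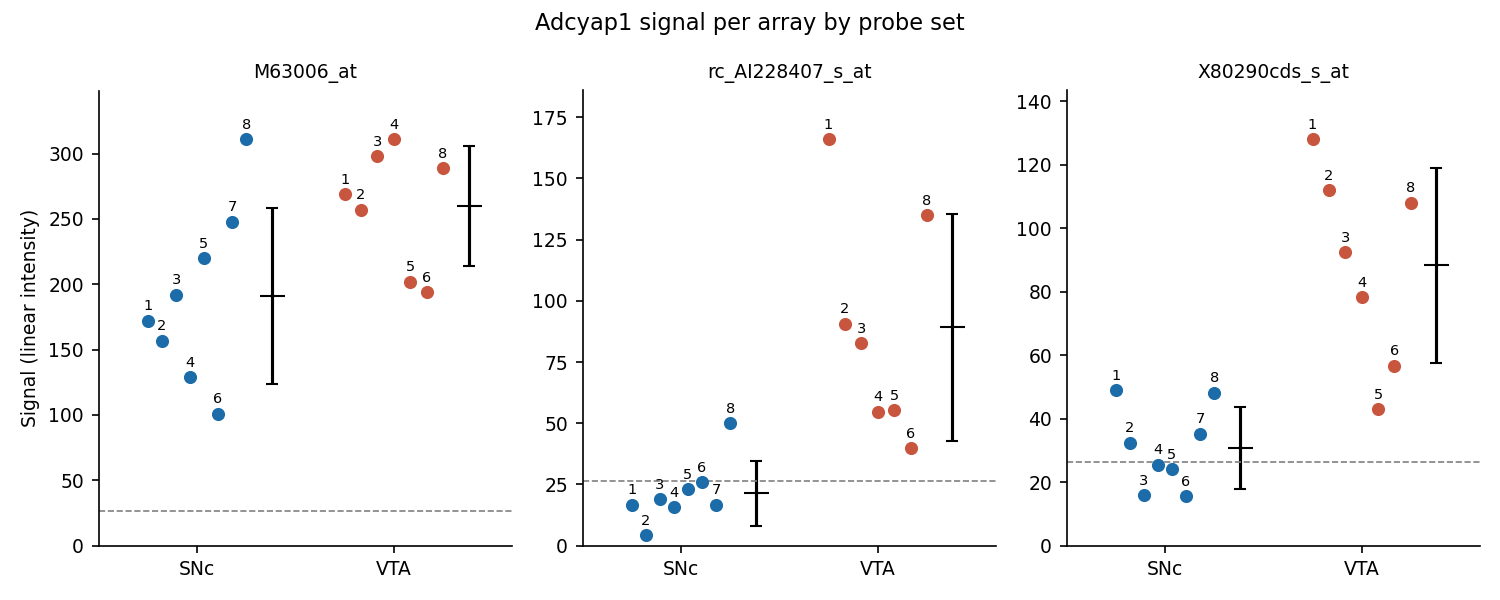
Adcyap1 signal (linear intensity, vertical axis from 0) on each SNc and VTA array for the 3 probe sets, with the array number above each point, the mean with SD as a black bar, and a dashed line at 26.3. By rc_AI228407_s_at only SNc 8, at 50.1, reaches the VTA range, while by M63006_at the regions overlap widely.

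Counting calls over the whole table, limma compared SNc with VTA in 5244 probe sets and 104 of them, 1.98%, had an adjusted p under 0.05. Of the 10 member probe sets 3 were bright enough to be in that fit, all of Adcyap1, and 2 of the 3 (rc_AI228407_s_at and X80290cds_s_at) were among the calls, both higher in VTA as were 1.14% of all probe sets tested. The members were proposed with this contrast known, so nothing is read from that count. Full separation of the SNc from the VTA arrays was seen for 0.858% of the probe sets tested, and for 0 of the 3 of Adcyap1.

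SNc 8 and VTA 1 stood at the upper end of their regions for several members. SNc 8 was the highest SNc array for 5 of the 10 probe sets, 2 of them of Adcyap1, and VTA 1 the highest VTA array for 5, also with 2 of Adcyap1. VTA 3 was the lowest VTA array for 5. Without SNc 8 the log2 differences of Adcyap1 were -0.57, -1.57 and -1.22 for M63006_at, rc_AI228407_s_at and X80290cds_s_at, and without VTA 1 they were -0.45, -1.29 and -1.06. Signal ratios of the 3' to the 5' end of the control transcripts follow RNA integrity and cDNA length. In SNc 8 they were 8.90 for actin and 5.04 for Gapdh. All SNc arrays, SNc 8 included, ran from 6.14 to 15.4 and from 3.31 to 5.05. The Gapdh ratio of SNc 8 was thus close to the highest in SNc. In VTA 1 the ratios were 9.06 and 4.54. All VTA arrays, VTA 1 included, ran from 7.40 to 9.43 and from 2.94 to 6.82. The part of these ratios in the Adcyap1 values was not tested.

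Vip, the second ligand gene, had a mean signal near the bottom of the table. Its only probe set, X02341cds_at, ran from 2.54 to 16 in SNc, with a median of 6.48, and from 3.63 to 34.8 in VTA, with a median of 6.26. VTA 1, at 34.8, was the only array above 26.3, and the other 6 VTA arrays lay within the SNc range. Means were 7.84 ± 4.74 (SNc) and 10.8 ± 10.9 (VTA), and the log2 difference of -0.12 (SE 0.19) became 0.05 without VTA 1. At such signals the array does not separate a low level from background, so no level of Vip is stated for either region.

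Vip is a textbook target of cAMP signalling, and its promoter is shown for the CREB-binding letters it carries. The sequence below is from RefSeq, build GRCr8, plus strand, chr1:44470343-44470429, with the heptamer TGACGTC in capitals. It lies upstream of 44470480, the start used for the promoter search.
Vip: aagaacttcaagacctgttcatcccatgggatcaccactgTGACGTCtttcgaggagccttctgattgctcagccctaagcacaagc
The heptamer begins 97 bases before that start. The gene entry for Vip runs from 44470232 to 44478561, so by that entry the printed stretch lies inside the gene. Which start these neurons use was not tested. Searched on both strands of the 250 bases before each start, the heptamer was present in 2.8% of 33469 promoters, and among the 5 members in that of Vip only. The palindrome TGACGTCA, which holds the heptamer, was in 1.59% of promoters and in none of the members, and the shorter TGACG, part of both, was in 18.2% of promoters, among the members in those of Vip and Vipr1. A match describes letters in a window of the reference and is not a measured binding site. No probe sequences were used here, so which part of each transcript a probe set reads is not stated.

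The receptor genes were dim in both regions. Their 6 probe sets all had a mean under the level for the whole-table fit, and so did Vip, so that 7 of the 10 members were not in it. When all 8740 probe sets that are not controls were fitted, limma called 101 of them, 1.16%, and none of these 7. At this brightness a difference between the regions could have gone undetected.

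Adcyap1r1, the receptor that prefers PACAP, was read by 3 probe sets with medians from 3.11 to 18.1 in SNc and from 4.85 to 16 in VTA. By D14909_at the signal ran from 9.67 to 25.3 in SNc and from 9.57 to 25.5 in VTA, nearly the same range, and the log2 difference was -0.01 (SE 0.14). By D14908_s_at the ranges were 4.91 to 28.1 and 7.35 to 22.8 (log2 difference 0.05, SE 0.15), with SNc 8 highest, and leaving it out gave -0.04. By Z23272_s_at they were 2.01 to 7.32 and 3.31 to 16.5 (log2 difference -0.15, SE 0.11), with VTA 5 at 16.5 apart from the other VTA arrays, and -0.05 without it. Of 45 signals from the 3 probe sets, 1 was above 26.3. Median centring of the arrays turned the sign for D14909_at, to 0.09.

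Vipr1, which binds both peptides, was read by a probe set just under the fit's level, by its mean log2 value, and by a dimmer one. E05551cds_s_at ran from 11.3 to 36.5 in SNc, with a median of 30.8, and from 11.8 to 48.5 in VTA, with a median of 29.2, and 10 of the 15 arrays were above 26.3. The SNc arrays lay at 11.3 to 13.3 (SNc 1, SNc 4 and SNc 5) or at 29.3 to 36.5 (the other 5), and the regions overlapped almost fully. Its log2 difference was -0.14 (SE 0.20). M86835_at stayed at or under 18.6 on every array but SNc 8, where it was 36.4, with a log2 difference of -0.01 (SE 0.19), or -0.15 without SNc 8. With median centring the difference for M86835_at was 0.09.

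Vipr2, the second shared receptor, had the largest regional difference among the receptor probe sets, carried by a few VTA arrays. U09631_at ran from 2.26 to 12.8 in SNc, with a median of 5.72, and from 4.0 to 35.6 in VTA, with a median of 8.13. VTA 2 and VTA 5, at 35.6 and 33.1, and VTA 1, at 18.6, were above every SNc array, while the other 4 VTA arrays lay within the SNc range. Means were 5.89 ± 3.52 (SNc) and 15.8 ± 13.6 (VTA), and the log2 difference of -0.45 (SE 0.21) was -0.31 without VTA 2 and -0.33 without VTA 5. Its size also depended on the offset added before taking logarithms, at -1.01 with an offset of 1 and -0.18 with 64.

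**Figure D2:**
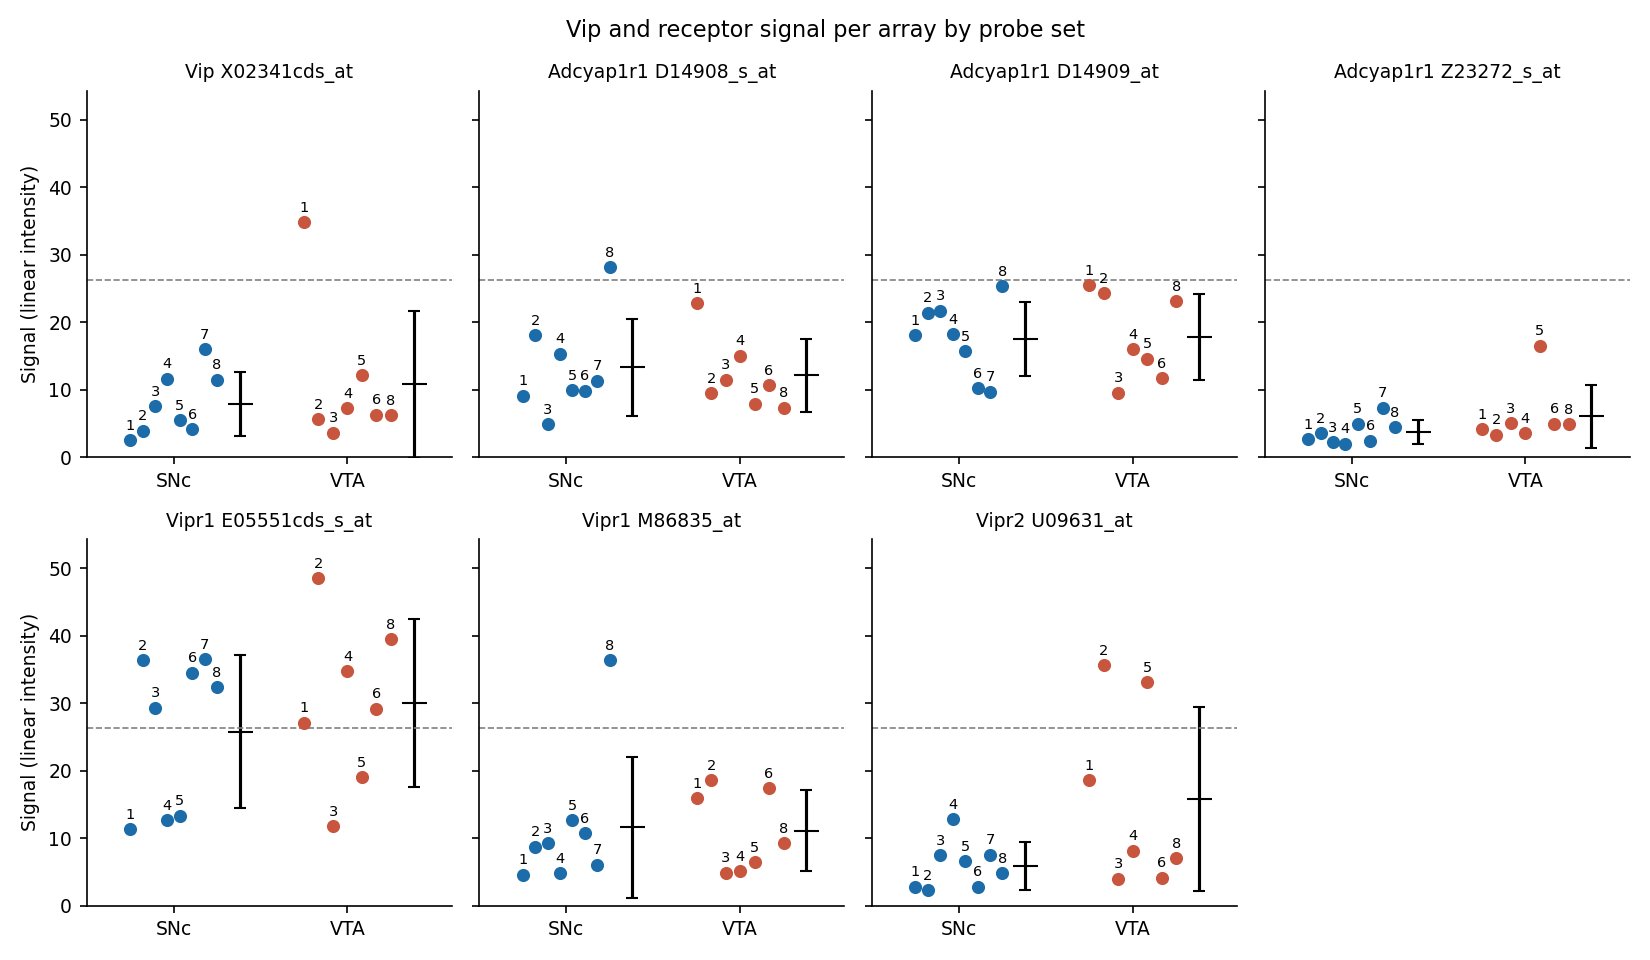
Signal (linear intensity, vertical axis from 0, the same in every panel) of Vip and the receptor genes on each array, numbered, with mean and SD as black bars cut at 0 and a dashed line at 26.3. Most points lie under 26.3, and single arrays stand apart: VTA 1 for Vip (34.8), SNc 8 for M86835_at of Vipr1 (36.4), VTA 2 and VTA 5 for Vipr2 (35.6 and 33.1).

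**Figure D3:**
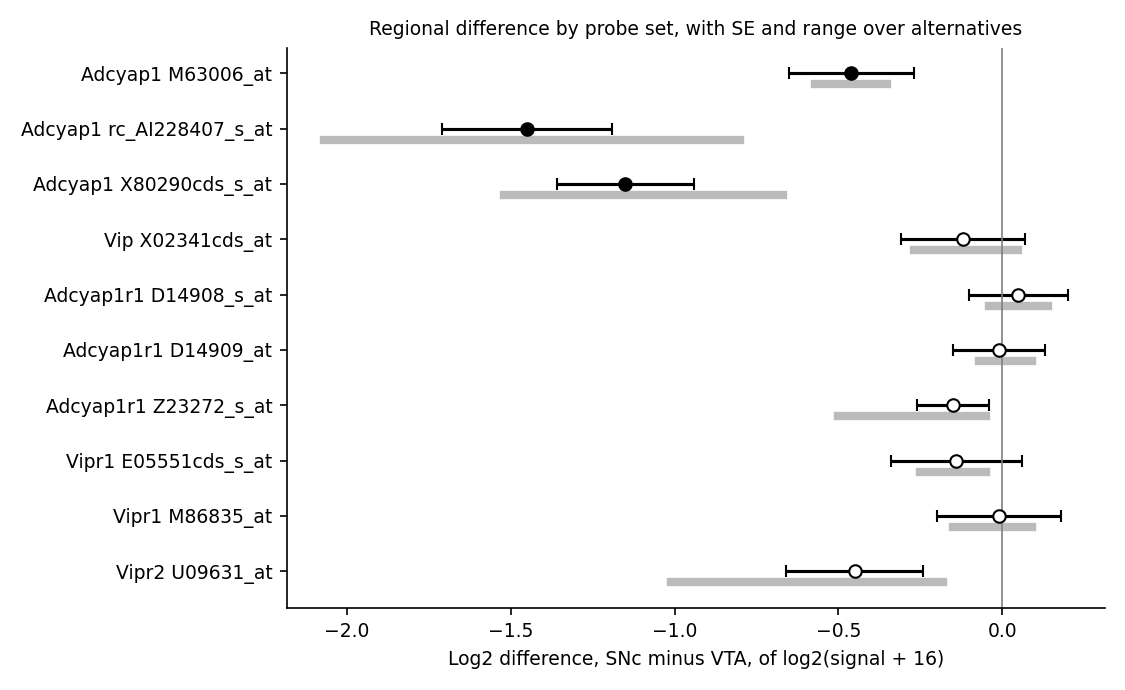
Difference between SNc and VTA means of log2(signal + 16) for the 10 probe sets (points, with SE), with filled points for those bright enough for the whole-table fit and grey bars for the range over alternative processing. The Adcyap1 bars run from -0.57 to -0.35 for M63006_at, -2.07 to -0.80 for rc_AI228407_s_at and -1.52 to -0.67 for X80290cds_s_at.

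Whether the Adcyap1 probe sets varied together among arrays of 1 region does not use the regional difference, so it was tested. All 6 Pearson correlations (3 pairs in 2 regions, of log2(signal + 16)) were positive, and 0 of 6 had an adjusted p under 0.05 in the two-sided exact permutation test, with 1 under 0.05 unadjusted by Pearson's r and 1 by Spearman's rho. The closest pair was rc_AI228407_s_at and X80290cds_s_at in VTA (r = 0.85, exact permutation p = 0.0169, adjusted p = 0.101; rho = 0.86, p = 0.0238, adjusted p = 0.143; n = 7). VTA 1 was highest by both probe sets, and VTA 5 and VTA 6 were among the 3 lowest by both. Without VTA 1 and VTA 6, farthest from the median, r was 0.76 over 5 arrays, and without VTA 5 alone it was 0.94 and passed the adjusted threshold.

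In SNc the signals of this pair were low, with 7 of 8 arrays under 26.3 for rc_AI228407_s_at and 4 of 8 for X80290cds_s_at. The difference between the regions in r was not tested. The pair had r = 0.13 (exact permutation p = 0.792, adjusted p = 0.792) and rho = -0.24 (p = 0.582, adjusted p = 0.662; n = 8), and r was -0.63 without SNc 2 and SNc 8. M63006_at and X80290cds_s_at had r = 0.71 in VTA (exact permutation p = 0.079, adjusted p = 0.237; rho = 0.29, p = 0.556, adjusted p = 0.662) and 0.56 in SNc (exact permutation p = 0.149, adjusted p = 0.298; rho = 0.48, p = 0.243, adjusted p = 0.654). Without the 2 arrays farthest from the median of M63006_at, r was -0.85 in VTA (VTA 5 and VTA 6 left out) and -0.02 in SNc (SNc 6 and SNc 8). Leaving out the farthest arrays also narrows the range, which can lower r by itself. On leaving out 1 array, r ran from 0.53 to 0.84 in VTA and from 0.35 to 0.70 in SNc. M63006_at and rc_AI228407_s_at had r = 0.52 in VTA (exact permutation p = 0.229, adjusted p = 0.324; rho = 0.21, p = 0.662, adjusted p = 0.662), or -0.56 without VTA 5 and VTA 6. In SNc they had r = 0.44 (exact permutation p = 0.270, adjusted p = 0.324; rho = 0.40, p = 0.327, adjusted p = 0.654), or 0.45 without SNc 6 and SNc 8, but -0.06 without SNc 8 alone.

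**Figure D4:**
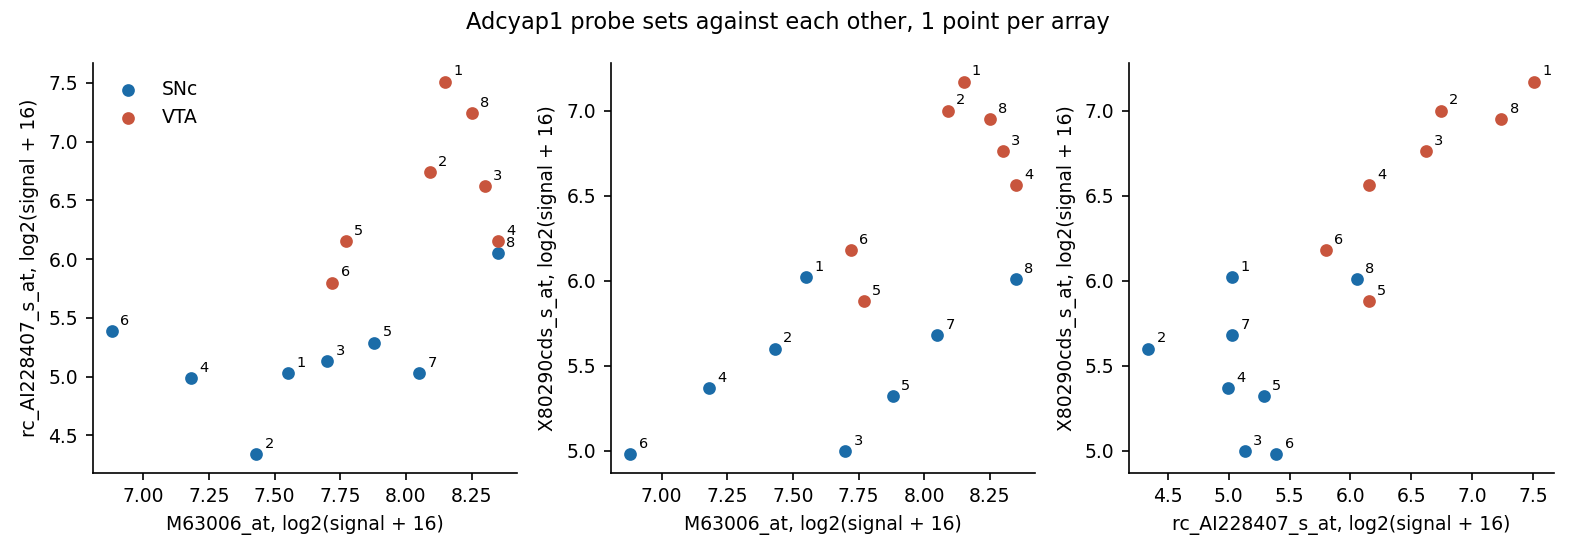
Each Adcyap1 probe set against another, as log2(signal + 16) on both axes, 1 numbered point per array, blue for SNc and red for VTA. In the panel of rc_AI228407_s_at and X80290cds_s_at the VTA arrays lie along a rising line (r = 0.85, n = 7). In SNc r was 0.13 (n = 8), with 7 of 8 arrays under 26.3 for rc_AI228407_s_at and 4 of 8 for X80290cds_s_at, and the difference in r was not tested.

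The genes whose pattern over the 15 arrays was most like that of Adcyap1 were sought among 4297 tested probe sets with 1 gene symbol, by Pearson's r of log2(signal + 16). These values describe likeness and were chosen as the highest, and a regional difference that both genes share can raise them, so r is also given after region means were subtracted. For X80290cds_s_at they were Calcr, the calcitonin receptor (r = 0.91), Ntf3, a neurotrophin (0.89), and Htr7, a serotonin receptor (0.85). The r values became 0.76, 0.62 and 0.61 with region means subtracted. For rc_AI228407_s_at they were Calb1, the calcium buffer calbindin (0.90), Scg3, a secretogranin of dense-core vesicles (0.88), and Calcr (0.82), and 0.68, 0.85 and 0.53 with region means subtracted. Scg3 had the smallest change on subtracting region means of the genes named here, with r = 0.83 within SNc and 0.86 within VTA, at signals of 1347 ± 157 in SNc and 1631 ± 237 in VTA. For M63006_at they were Or8g20b, an olfactory receptor gene by its symbol (0.87), Samd1 (0.80) and Natd1 (0.80), and 0.81, 0.73 and 0.75 with region means subtracted. The 2 other probe sets of Samd1 had r = -0.09 and 0.20. No gene was named for both M63006_at and another Adcyap1 probe set.

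Genes that work around these peptides and receptors were taken from 8 lists set by function. Of 109 genes, 77 had a probe set and 58 were bright enough to be tested, each by its brightest probe set. In limma 4 of the 58 passed, 3 higher in VTA and 1 higher in SNc, where 70 of all 3221 genes tested, 2.17%, passed (1.18% higher in VTA and 0.993% higher in SNc). The median log2 difference was -0.10, beside -0.035 over all genes tested. These lists were chosen with earlier results of these arrays known.

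The enzymes that cut and finish peptide precursors showed no call, where 2.17% of all genes tested passed. At that share, 0 calls among so few genes is not read as a trait of the list. limma called 0 of the 7 genes tested at the adjusted threshold, while 3 were under 0.05 before adjustment: Pcsk2, a convertase of neuropeptide precursors (log2 difference -0.60, SE 0.19), Furin, a convertase of the constitutive pathway (0.48, SE 0.15, and -0.03 by its other tested probe set), and Pcsk6, a related convertase (0.58, SE 0.24). Pcsk2 passed without VTA 6 (limma adjusted p = 0.0461). The share of all genes under 0.05 before adjustment is not given here, so nothing is read from the 3 of 7. The list's median was 0.05.

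Of the relatives of the system in the secretin family, 13 had a probe set and 10 were bright enough to be tested, of which 1 passed. The share over all genes tested was 2.17%, with 1.18% higher in VTA. Calcr, which binds calcitonin, had a signal of 2.03 to 37.8 in SNc and 26.7 to 78.8 in VTA, with means of 15.4 ± 12.6 and 52.3 ± 20.6 (log2 difference -1.16, SE 0.24, limma adjusted p = 0.0137). The call held on leaving out any single array, with an adjusted p up to 0.0402, and the difference ran from -2.06 with an offset of 1 to -0.55 with 64. Its SNc mean was under 26.3 and its VTA mean above it, so Calcr entered the fit by its VTA signal. With the stricter filter on dim probe sets Calcr was left out of the fit. Sctr, the secretin receptor, had 21.9 ± 7.94 (SNc) against 38.4 ± 12 (VTA; log2 difference -0.52, SE 0.18, limma adjusted p = 0.144). Ghrh, a hypothalamic releasing hormone, and Calcrl, the receptor subunit for CGRP and adrenomedullin, differed by -0.34 (SE 0.14) and -0.40 (SE 0.21), and neither passed. Of the 10, 8 had a negative difference by their brightest probe set, and the median was -0.24. Sctr, like Calcr, had an SNc mean under 26.3 and a VTA mean above it. Both entered the fit by their VTA signal, so the filter favours a negative sign for them and nothing is read from the count of 8. Of all genes tested, 44.4% were higher in SNc by sign. Other tested probe sets gave 0.14 and -0.18 for Ghrh, 0.38 and -0.18 for Pth1r, and -0.26 for Ghrhr, the last 2 being receptors of this list.

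For signalling next to the receptors, limma called 0 genes among G proteins and adenylyl cyclases, cAMP effectors, phosphodiesterases and the CREB family. Over all genes tested 2.17% passed. Of 8 G protein and adenylyl cyclase genes none had an unadjusted p under 0.05. Gnas, the stimulatory G protein subunit, had 5491 ± 877 in SNc and 5046 ± 801 in VTA (log2 difference 0.12, and -0.40, 0.15 and 0.14 by its other tested probe sets), while Adcy5, an adenylyl cyclase, differed by 0.32 (SE 0.17) and Gnb1, a beta subunit, by 0.18 (SE 0.14). Of 10 cAMP effector genes none had an unadjusted p under 0.05, with Rapgef3, a cAMP-activated exchange factor, at 0.47 (SE 0.29), Prkacb, a catalytic subunit of protein kinase A, at -0.19 (SE 0.14), and Prkar2a, a regulatory subunit, at -0.17 (SE 0.15). Of 6 phosphodiesterases, which break down cAMP, Pde4a had an unadjusted p under 0.05 (0.41, SE 0.17), and Pde4b and Pde2a differed by -0.34 (SE 0.23) and 0.19 (SE 0.14). Creb1 and Crem, transcription factors of the CREB family, were the 2 tested of that list and differed by -0.11 (SE 0.18) and 0.15 (SE 0.27). The medians of these 4 lists lay between -0.04 and 0.14. Nothing is read from their counts under 0.05 before adjustment, since the share over all genes is not given.

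In the phospholipase C branch, 1 of 6 genes passed, where 2.17% of all genes tested passed. Full separation of the regions was seen for 0.858% of all probe sets tested. Itpr1, the calcium release channel opened by inositol trisphosphate, ran from 663 to 1132 in SNc and from 301 to 577 in VTA, with no overlap, and had means of 795 ± 154 and 412 ± 92.4 (log2 difference 0.93, SE 0.15, limma adjusted p = 0.00217). The call held without any single array, with an adjusted p up to 0.00781. Its 4 other probe sets were all below the fit's level and gave 0.21, 0.03, -0.04 and 0.05. Plcb4, a phospholipase C, differed by 0.44 (SE 0.14, limma adjusted p = 0.113), and by -0.21 by its other tested probe set. It passed with array weights (limma adjusted p = 0.0288). Itpr3 differed by -0.32 (SE 0.18) and Plcb3 by -0.37 (SE 0.28).

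Of 9 genes that cAMP and neuronal activity can induce, 2 passed, both higher in VTA. The share over all genes tested was 2.17%, with 1.18% higher in VTA. By its brightest probe set each of the 9 had a negative difference (SNc minus VTA). The list's median was -0.48, beside -0.035 for all genes tested, of which 44.4% were higher in SNc by sign. Other probe sets did not always share that sign. A second tested probe set gave 0.31 for Fos and 0.17 for Nr4a1, both immediate early genes, and dim ones gave 0.27 and 0.23 for Egr1, 0.13 for Junb and 0.15 for Bdnf. Scg2, a granin, and Vgf, a secreted peptide precursor, were the 2 that passed, with log2 differences of -0.73 (SE 0.17, limma adjusted p = 0.0321) and -0.80 (SE 0.19, limma adjusted p = 0.0377). Scg2 ran from 697 to 1438 in SNc and from 1610 to 2353 in VTA. Vgf ran from 43.2 to 154 and from 167 to 250, without overlap in either gene. Full separation of the regions was seen for 0.858% of all probe sets tested. Both calls were lost with median centring of the arrays (-0.64 and -0.71, limma adjusted p = 0.0700 and 0.0693) and with an offset of 1 (limma adjusted p = 0.0518 and 0.0601). That of Scg2 was also lost without VTA 1, VTA 2, VTA 3, VTA 4 or VTA 5 (limma adjusted p up to 0.0673). That of Vgf was lost with no filter on dim probe sets (limma adjusted p = 0.0529) and without any 1 of 10 arrays, which were SNc 2, SNc 3, SNc 5, SNc 8 and VTA 1 to VTA 6 (limma adjusted p up to 0.0811). Bdnf, a neurotrophin, had 91.7 ± 48.5 in SNc and 162 ± 35.4 in VTA (-0.82, SE 0.24, limma adjusted p = 0.0872). Bdnf passed with array weights and without SNc 5 or SNc 8 (limma adjusted p = 0.0254, 0.0342 and 0.0489). Junb and Egr1, immediate early transcription factors, differed by -0.56 (SE 0.20) and -0.40 (SE 0.18).

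**Figure D5:**
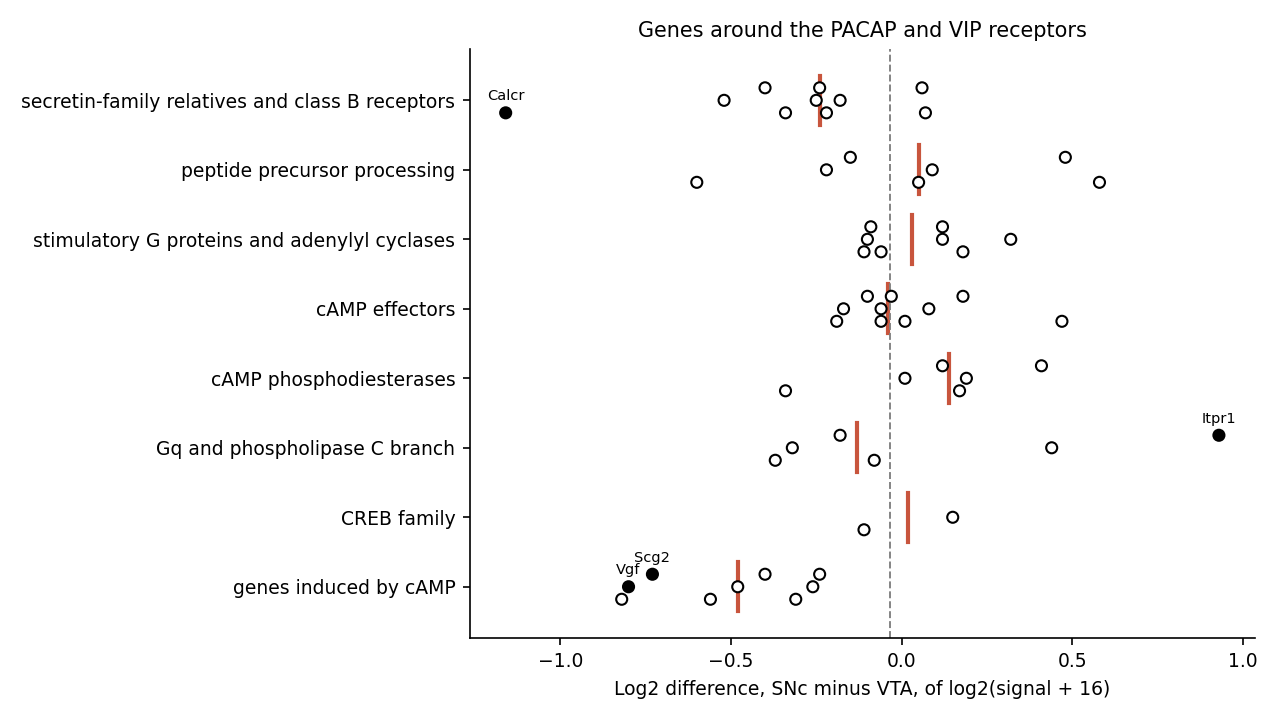
Difference between SNc and VTA means of log2(signal + 16) for the genes tested in each of the 8 lists, 1 point per gene by its brightest probe set, filled where limma's adjusted p was under 0.05, with the list's median as a red line and the median of all genes (-0.035) dashed. By their brightest probe sets the 9 genes induced by cAMP lie below 0. The lists of G proteins and adenylyl cyclases, cAMP effectors, phosphodiesterases and the CREB family have no filled point.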

How the data were processed

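The deposited table holds 1 linear intensity per probe set for each of 8 SNc and 7 VTA arrays. By its values the authors had scaled the arrays, since the 2% trimmed mean was 150.2 on every deposited array. For software, background correction and amplification, no method was named in the labels. Median signal per array was 37.9 to 46.7.

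Values were turned into log2(intensity + 16), which shrinks differences of dim probe sets. After 59 control probe sets were removed, the 40% with the lowest mean log2 value (under a signal of about 26.3) were left out, which kept 5244. SNc and VTA were compared with limma 3.58.1 in R 4.3.3 (lmFit, eBayes, two-sided), with Benjamini-Hochberg adjustment over all tested probe sets and a threshold of 0.05. A pathway gene stood by its brightest probe set. Correlations used exact permutation of pairings (Python 3.11.15), adjusted over 6 relations. Both procedures were tested on simulated data. For arrays, their number limits precision.

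The members and lists were chosen with earlier results of these data known. The genes named are all members, each list's genes past the threshold, the 3 others with the smallest p, and the 3 genes most like each Adcyap1 probe set. Promoters of 5 of 5 members were found in the RefSeq table of GRCr8. Alternatives were other scalings, offsets, filters, thresholds, array weights, the replicate number as a block, the mean of a gene's probe sets, and leaving out each array.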

Additional observations from a re-analysis of the deposited data

Results flagged for a closer look

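In 6 of 74 groups examined (SNc or VTA arrays of a member or a named pathway gene), 1 array lay far from the others by Dixon's criterion, which chance meets in about 1 of 20 groups. Vip was 34.8 in VTA 1, where the next VTA array was 12.1. Z23272_s_at of Adcyap1r1 was 16.5 in VTA 5, next to 5.04. M86835_at of Vipr1 was 36.4 in SNc 8, next to 12.7. Creb1 was 51.5 in VTA 4, next to 31.0, Furin was 54.3 in VTA 2, next to 91.5, and Rapgef3 was 12.6 in SNc 8, next to 53.5.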

How the results depend on the processing

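The log2 difference of each Adcyap1 probe set was negative in all 24 alternatives, as a description, since that direction chose the members. The number of probe sets called over the table, 104, was 60 with an offset of 1, 184 with array weights, 40 at a threshold of 0.01, 208 at 0.10, and 56 to 115 on leaving out 1 array. The share of calls higher in SNc was 42.3%, and 64.4% after median centring. The 4 pathway genes called became 2 with median centring or an offset of 1, 1 at a threshold of 0.01, and 2 to 4 without 1 array. They became 6 with array weights, and 5 with the mean of a gene's probe sets or at a threshold of 0.10. The relations between Adcyap1 probe sets with an adjusted p under 0.05 numbered 0, and 0 to 1 without 1 array. On leaving out 1 SNc array, r in SNc ran from -0.06 (without SNc 8) to 0.75 for M63006_at with rc_AI228407_s_at, and from -0.45 (without SNc 8) to 0.28 for rc_AI228407_s_at with X80290cds_s_at. The cause of these changes was not tested.

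Same-numbered SNc and VTA arrays had correlations of their deviations from 0.04 to 0.25, all positive and over 0.1 in 5 of 7 pairs. Of 7 SNc arrays, 3 correlated best with their own number, and the consensus correlation was 0.121. The labels do not say whether the number marks a pair. The main fit did not use it, and these values do not show that the arrays were unpaired. With the replicate block, 153 probe sets (random) or 99 (fixed, where SNc 7 has no partner) and 4 pathway genes were called. Signals near 26.3 or lower limit what can be said of Vip and the receptors.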
